A study of Homo sapiens with 8 samples.

Results

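The genes described here serve oxidative defence under the transcription factor NRF2, and include enzymes of the pentose phosphate pathway and of NADPH supply. They were a list of 35 genes, each read from array probe sets annotated to 1 gene symbol, and 33 of them were measured among 18244 genes in all. Ferritin heavy chain FTH1 and the nuclear receptor NR0B1 had no probe set annotated to them alone and were not analysed here. All 33 passed the filter on low signals that left 11926 genes for testing. Of these 33, 29 lay above the array median on all 8 arrays, so for most of them the filter did not depend on the group in which they were high.

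NRF2, encoded by NFE2L2, is held in the cytoplasm by KEAP1, which presents it for degradation. When reactive compounds modify KEAP1, or when KEAP1 is mutated, NRF2 accumulates, enters the nucleus and binds antioxidant response elements next to its target genes together with small MAF proteins. The targets take up cystine, make and recycle glutathione and thioredoxin, reduce quinones and carbonyls, supply NADPH, degrade haem and export conjugates. In lung adenocarcinoma the pathway is a recurrent site of mutation, and A549 cells are known to carry a loss-of-function KEAP1 mutation.

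RNA was measured on 8 expression arrays, 1 per condition, from HCC827 and A549, established human lung adenocarcinoma lines. HCC827 is labelled as carrying an activating EGFR mutation and A549 as lacking one. Each line was grown for 14 days on a collagen scaffold from 100000 cells (3D) or for 7 days in dishes from 200000 cells (2D), with gefitinib at 1 µM or without inhibitor (control), gefitinib being a drug that blocks the kinase of EGFR. In 3D gefitinib was added after 11 days. For 2D a start at day 4 was assumed, since the protocol line that gives it names 3D as well. No condition was replicated. The 3D samples were bead-lysed out of the scaffold and extracted with another kit than the 2D samples, so culture, age, seeding and RNA preparation cannot be told apart.

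All values are log2 signals, and every difference is a log2 difference. A difference was called when limma's Benjamini-Hochberg adjusted p over the 11926 genes was under 0.05, and ± is the standard error of the fit. With no replicates, that error comes from how far the gefitinib difference changed between cultures within a line. Limma moderates it with the spread of all tested genes. The line marker CDKN2A, deleted in A549, averaged 12.89 in HCC827 and 6.70 in A549, as the line labels require, and 8 of 11 immune, endothelial and fibroblast markers, the leukocyte marker PTPRC among them, failed the filter on low signals. Of the 3 that passed, the monocyte marker CD14 averaged 6.56 in HCC827 and 8.20 in A549 (-1.64, adjusted p = 0.000586). In HCC827, DUSP6, a phosphatase induced by ERK signalling downstream of EGFR, differed by -3.32 between the 3D gefitinib and control arrays and by 3.64 between the 2D arrays so labelled. The HCC827 2D arrays are therefore called by their labels. The line and culture differences do not depend on which of the 2 is the treated one, but their errors do.

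RNA quality measures differed with culture. The actin control probe sets at the 3' end exceeded those at the 5' end by 2.10 ± 0.47 on the 3D arrays and by -0.10 ± 0.04 on the 2D arrays (SD, n = 4 each; two-sided exact permutation test, p = 0.0286, the smallest that 4 against 4 allows). Labelling spikes averaged 11.02 on 3D arrays and 8.10 on 2D arrays (the same exact p), while the array medians lay between 7.27 and 7.34. The part of these differences in the culture results was not tested.

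The promoter windows below were taken from RefSeq (GRCh38.p14) because the antioxidant response element is the sequence that the listed genes are reported to share, and 27 of the 35 had a window of 250 bases before to 50 after a transcription start. The core TGACNNNGC was searched on both strands, where the other strand reads GCNNNGTCA. It was found for 11 of these 27 genes (40.7%), against 16.1% of 27305 genes with a window. A match that reads TGACTCAGC, as in ME1 and PIR, also holds the AP-1 motif TGACTCA. The windows of GPX2, PGD, CYP4F11 and CBR1 are those with the largest line differences among the genes with a match, and GCLM and KEAP1 are shown because neither differed between the lines by the test and both hold the same 9 letters. Each runs 5' to 3' on the strand of its gene, with the core in capitals, and in KEAP1 a second core precedes the shared one.
GPX2 (chr14:64942834-64942892, minus strand): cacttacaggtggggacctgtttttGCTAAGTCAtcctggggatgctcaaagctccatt
PGD (chr1:10398838-10398896, plus strand): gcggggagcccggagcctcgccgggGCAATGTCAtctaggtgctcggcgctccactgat
CYP4F11 (chr19:15934990-15935048, minus strand): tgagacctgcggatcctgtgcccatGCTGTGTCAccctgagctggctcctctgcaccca
CBR1 (chr21:36069840-36069898, plus strand): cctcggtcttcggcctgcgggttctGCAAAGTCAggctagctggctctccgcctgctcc
GCLM (chr1:93909431-93909489, minus strand): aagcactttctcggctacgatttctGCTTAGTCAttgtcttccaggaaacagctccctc
KEAP1 (chr19:10502772-10502827, minus strand): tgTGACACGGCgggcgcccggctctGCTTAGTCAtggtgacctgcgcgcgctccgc
The line differences of the 11 genes with a match ran from -5.23 to 0.09 with a median of -1.24, and the 15 measured genes with a window and no match had a median of -1.53. A match is a description of these letters and not of binding.

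The lines were compared first, with 4 HCC827 arrays against 4 A549 arrays. Most of the genes were lower in HCC827: 28 of 33 were called lower, where 26.1% of all tested genes were, and 1 was called higher, where 22.0% were. The median of the 33 was -1.34, against -0.03 over all tested genes. All 28 were below 0 in 4 of 4 matched pairs of arrays. The fitted difference is the mean of these pairs and the 28 were called on it, so this is not separate evidence. Of the 28, 20 had a fitted difference of 1 or more and 10 of 2 or more. Shares of all tested genes for these counts are not given here. For 24 of the genes every HCC827 array lay below every A549 array, as for 18.2% of all tested genes, for 9 the arrays of the lines overlapped, and for 0 every HCC827 array lay above (14.4% of all). Without CYP4F11 and CYP4F3, which passed the filter only through A549, 26 of 31 were lower, 8 by 2 or more, and 22 had separate arrays. Of the 24 genes with several probe sets, only NFE2L2 had opposite signs for the line, at just above 0 and at -0.03. Sizes varied more: the probe sets of SLC7A11 ran from -3.17 to -0.93 and those of CYP4F3 from -3.05 to -0.58. Those of CBR1 ran from -2.25 to -0.0, the value nearest 0 coming from a dim probe set.

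**Figure D1:**
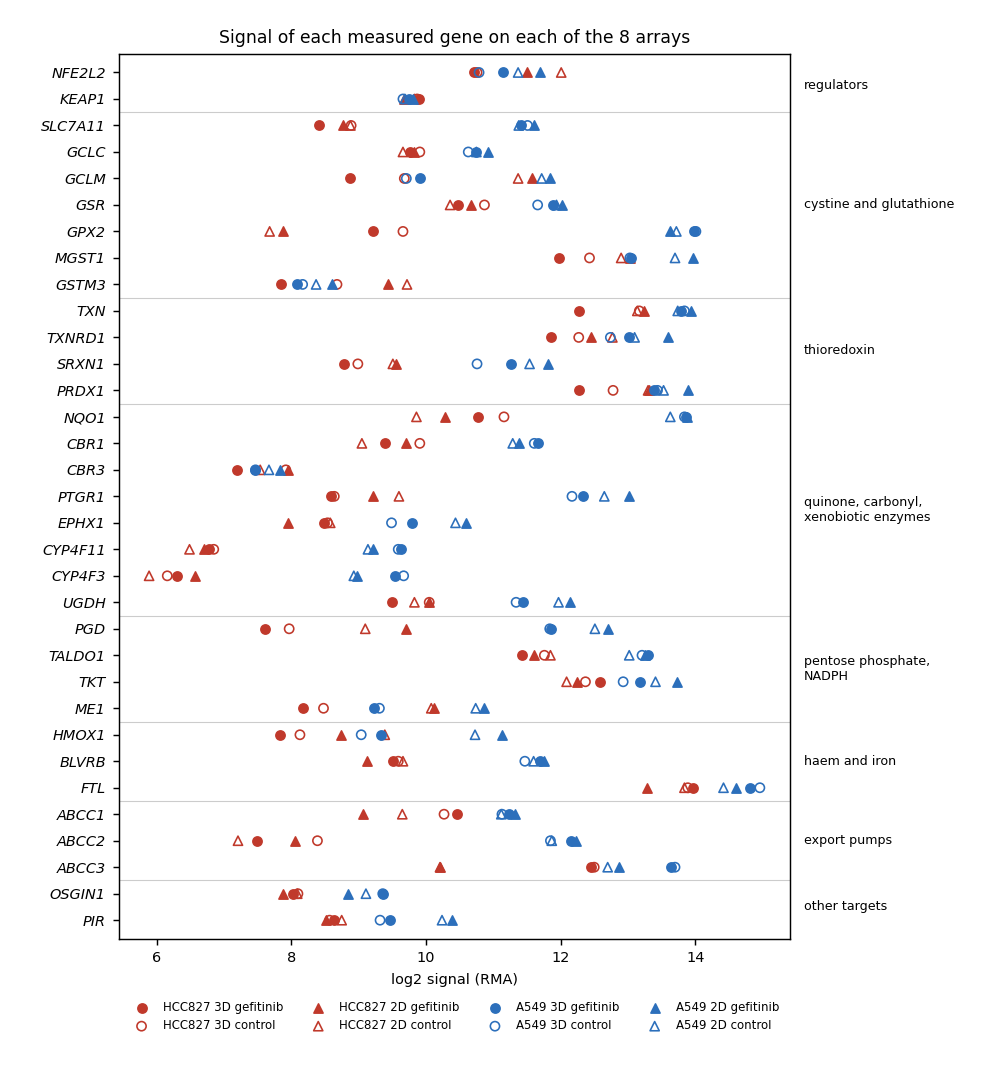
Log2 signal (x axis) of the 33 measured genes (y axis, grouped by role) on each of the 8 arrays, with HCC827 in red, A549 in blue, circles for 3D, triangles for 2D, filled for gefitinib and open for control. The red and blue points are apart for 24 genes, among them GPX2, NQO1, PTGR1, PGD and ABCC2, and mix for 9, among them NFE2L2, KEAP1, GCLM, GSTM3 and CBR3.

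The regulators themselves were not called between the lines. NFE2L2 had signals of 10.72, 10.76, 11.50 and 12.01 in HCC827 (3D gefitinib, 3D control, 2D labelled gefitinib, 2D labelled control) and 11.14, 10.79, 11.70 and 11.37 in A549, in the same order, which is used for all such values. The lines overlapped, at a difference of 0.00 ± 0.12 (adjusted p = 0.996). Without both HCC827 2D arrays NFE2L2 was called lower, at -0.22 ± 0.09 (adjusted p = 0.0422, in a range of 0.0422 to 0.998 over the alternatives). KEAP1 had 9.90, 9.87, 9.67 and 9.83 in HCC827 and 9.75, 9.66, 9.81 and 9.69 in A549, a difference of 0.09 ± 0.09 (adjusted p = 0.459). These are RNA signals, and neither protein level nor KEAP1 activity was measured.

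Among the glutathione genes 5 of 7 were lower in HCC827. The cystine transporter SLC7A11, which imports the limiting precursor of glutathione, had 8.42, 8.89, 8.77 and 8.88 in HCC827 and 11.42, 11.51, 11.60 and 11.38 in A549 (-2.74 ± 0.12, adjusted p = 0.000446). GPX2, a glutathione peroxidase best known from epithelium of the gut, had 9.21, 9.66, 7.88 and 7.68 in HCC827 and 13.98, 14.01, 13.62 and 13.72 in A549 (-5.23 ± 0.14, adjusted p = 0.000204). The 2 lines were separate on all arrays for both genes, and GPX2 had the largest difference of the 33.

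The catalytic subunit of the enzyme that starts glutathione synthesis, GCLC, differed by -0.97 ± 0.10, the glutathione reductase GSR by -1.29 ± 0.15 and the membrane-bound transferase MGST1 by -0.85 ± 0.13. The modifier subunit GCLM of that same enzyme had 8.87, 9.68, 11.57 and 11.37 in HCC827 and 9.91, 9.71, 11.84 and 11.72 in A549, so the lines overlapped and the cultures did not (-0.42 ± 0.19, adjusted p = 0.143). GCLM was called lower without both HCC827 2D arrays (-0.53), and without the 3D control or the 2D array labelled gefitinib of that line (-0.67 each). GSTM3, a cytosolic glutathione transferase, was the 1 gene called higher in HCC827, at 7.85, 8.68, 9.44 and 9.72 against 8.08, 8.17, 8.61 and 8.37 in A549 (0.62 ± 0.13, adjusted p = 0.0218). Its difference was -0.23 in the 3D gefitinib pair, it was not called without either the HCC827 2D arrays or any 1 A549 array, and its other 2 probe sets gave 0.03 and 0.05.

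All 4 thioredoxin genes were lower in HCC827, and 3 of them by less than 1. Sulfiredoxin SRXN1, which repairs overoxidised peroxiredoxins, had 8.78, 8.99, 9.55 and 9.51 in HCC827 and 11.26, 10.76, 11.81 and 11.54 in A549 (-2.14 ± 0.10, adjusted p = 0.000574). Thioredoxin TXN differed by -0.87 ± 0.19, its reductase TXNRD1 by -0.78 ± 0.09 and the peroxiredoxin PRDX1 by -0.65 ± 0.14, with adjusted p-values of 0.0224, 0.00395 and 0.0205. For SRXN1 the lines did not overlap on any array.

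Of the 8 quinone, carbonyl and xenobiotic enzymes 7 were lower in HCC827, with a median of -2.33 over the 8. NQO1, the quinone reductase widely used as a readout of NRF2, had 10.78, 11.16, 10.28 and 9.86 in HCC827 and 13.87, 13.84, 13.88 and 13.63 in A549 (-3.29 ± 0.16, adjusted p = 0.000604), and its second probe set gave -3.22. The prostaglandin reductase PTGR1 had 8.59, 8.64, 9.22 and 9.60 in HCC827 and 12.33, 12.17, 13.01 and 12.65 in A549 (-3.53 ± 0.11, adjusted p = 0.000248). Both were separate on every array by more than the spread within either line.

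The carbonyl reductase CBR1 differed by -1.98 ± 0.22, the epoxide hydrolase EPHX1 by -1.69 ± 0.13 and UGDH, which makes the glucuronic acid donor, by -1.86 ± 0.16. The fatty acid hydroxylases CYP4F11 and CYP4F3 lay under the array median on all 4 HCC827 arrays, at 6.49 to 6.85 and 5.89 to 6.57, where a signal can be background. Their fitted differences of -2.68 and -3.05 are against signals that may not measure the RNA. Both belong to a family of near-identical genes that probes may not separate. CBR3, a carbonyl reductase related to CBR1, did not separate the lines, at 7.19, 7.92, 7.95 and 7.54 in HCC827 and 7.47, 7.47, 7.83 and 7.67 in A549 (0.04 ± 0.21, adjusted p = 0.891).

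**Figure D2:**
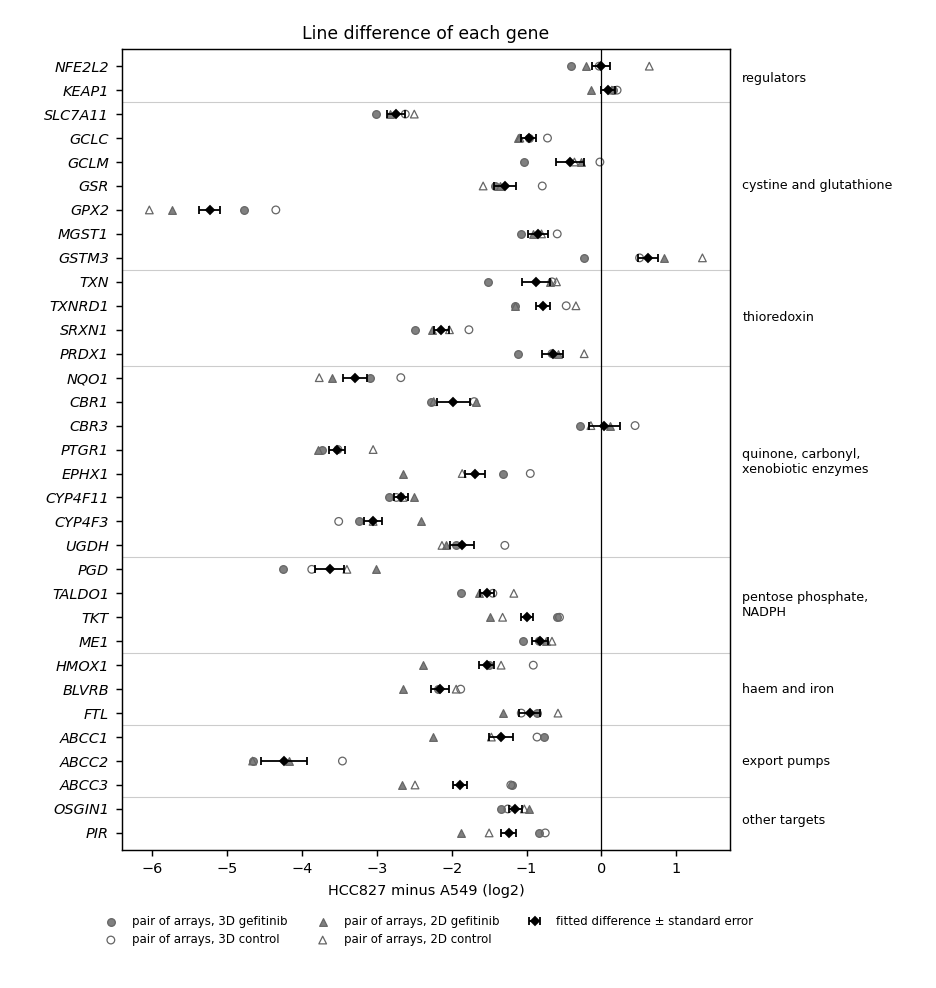
Line difference of each gene (HCC827 minus A549, log2, x axis) for the 33 genes (y axis): grey points are the 4 matched pairs of arrays and black diamonds the fitted difference with its standard error. The diamonds run from -5.23 for GPX2 to 0.62 for GSTM3, and the pairs spread widely in genes such as EPHX1, GPX2 and GSTM3.

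All 4 pentose phosphate and NADPH genes were lower in HCC827. PGD, the phosphogluconate dehydrogenase that forms NADPH in the oxidative arm of the pentose phosphate pathway, had 7.61, 7.97, 9.70 and 9.10 in HCC827 and 11.86, 11.84, 12.71 and 12.51 in A549 (-3.63 ± 0.19, adjusted p = 0.000649). In the non-oxidative arm transaldolase TALDO1 differed by -1.53 ± 0.09 and transketolase TKT by -0.99 ± 0.08. The cytosolic malic enzyme ME1, another source of NADPH, differed by -0.82 ± 0.11, with arrays that overlapped between lines.

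Among the haem and iron genes, haem oxygenase HMOX1 (-1.53 ± 0.10), biliverdin reductase BLVRB (-2.16 ± 0.12) and the ferritin light chain FTL (-0.96 ± 0.14) were all lower in HCC827. The export pumps, ATP-driven carriers of glutathione and glucuronide conjugates, were lower too: ABCC2 by -4.24 ± 0.31, ABCC3 by -1.89 ± 0.09 and ABCC1 by -1.34 ± 0.16. ABCC2 had 7.49, 8.39, 8.05 and 7.21 in HCC827 and 12.16, 11.85, 12.23 and 11.87 in A549 (adjusted p = 0.00135), with its second probe set at -2.56. Its 7.21, on the HCC827 2D array labelled control, lay under that array's median of 7.33. OSGIN1 (-1.15 ± 0.09), a growth inhibitor induced by oxidative stress, and PIR (-1.24 ± 0.10), an iron-binding nuclear protein, were also lower. Fitted within the 3D arrays alone 28 genes were lower and within the 2D arrays alone 27, both settings chosen after seeing the data. The line difference above averages over these same cultures, so the 2 fits are not separate evidence. Their shares of all tested genes are not given here.

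Related genes outside the list behaved unevenly between the lines. Of 12 other NRF2 targets 10 were lower in HCC827 and 0 higher, with a median of -4.32. They included AKR1C2 (-7.17 ± 0.16) and AKR1B10 (-7.05 ± 0.33), which reduce carbonyls, and the aldehyde dehydrogenases ALDH1A1 and ALDH3A1. ALDH1A1 averaged 6.53 in HCC827 and 13.88 in A549, and ALDH3A1 6.48 in HCC827 and 13.76 in A549, with every HCC827 value under the array median, where it can be background. Without these 2 genes 8 of 10 were lower, with a median of -2.68. AKR1C2 (6.74 to 8.02 in HCC827), AKR1B10 (6.81 to 8.48 in HCC827) and others of these 10 also lay under the array median on some HCC827 arrays. Their differences and the -2.68 can therefore rest in part on background. AKR1C genes are near-identical, so their probe sets may not separate them. Of 15 other pentose phosphate and NADPH enzymes 4 were higher and 2 lower, with a median of 0.24.

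Those higher were headed by MTHFD1L (1.17 ± 0.09), a mitochondrial folate enzyme, ME3 (1.10 ± 0.24), a mitochondrial malic enzyme, and SHPK (0.81 ± 0.09), the sedoheptulose kinase, and the isocitrate dehydrogenase IDH1 (-0.76 ± 0.13) was one of the lower genes. Of 21 other thiol and peroxide enzymes 3 were higher and 11 lower, with glutaredoxin GLRX at -3.61 ± 0.24, the peroxiredoxin PRDX2 at 3.00 ± 0.15 and the thioredoxin inhibitor TXNIP at 1.90 ± 0.15. Of 9 other glutathione transferases 1 was higher and 6 lower, with MGST2 at -1.96 ± 0.12 and GSTA4 at -1.36 ± 0.10. The 10 genes of the KEAP1-NRF2 machinery gave 1 higher, NFE2L3, a relative of NFE2L2 that averaged 8.93 in HCC827 and 6.89 in A549, under the array median on every A549 array, and 4 lower, of which the autophagy receptor SQSTM1 had -0.73 ± 0.15 and the small MAF protein MAFG -0.59 ± 0.10.

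The second comparison asked what 3D culture on the scaffold differed in from 2D culture, within each line (2 arrays against 2). The genes moved in both directions and 5 of them were called alike in both lines: GCLM, ME1, HMOX1 and SRXN1 were lower in 3D, and ABCC3 was higher in 3D. In HCC827 11 of 33 were called lower in 3D (13.7% of all tested genes) and 4 higher (19.7%), with a median of -0.02 against 0.08 over all genes. In A549 7 were called lower (6.01%) and 1 higher (16.3%), with a median of -0.21 against 0.13. With cyclic loess scaling those A549 background shares were 8.82% and 10.02%. No gene was called in opposite directions in the 2 lines.

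GCLM had 8.87 and 9.68 in HCC827 3D, against 11.57 and 11.37 in HCC827 2D (-2.19 ± 0.27, adjusted p = 0.0131), and 9.91 and 9.71 in A549 3D, against 11.84 and 11.72 in A549 2D (-1.97 ± 0.27, adjusted p = 0.0214). Its 3D arrays lay under its 2D arrays in both lines, but its second, dimmer probe set gave -0.52 in HCC827 and -0.34 in A549. ME1 had 8.18 and 8.48 in HCC827 3D, against 10.12 and 10.08 in HCC827 2D (-1.77 ± 0.15, adjusted p = 0.0106), and in A549 it fell by 1.53 ± 0.15 (adjusted p = 0.0177). For ME1 the second probe set gave -1.44 in HCC827 and -1.14 in A549.

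HMOX1 had 7.83 and 8.13 in HCC827 3D, against 8.74 and 9.39 in HCC827 2D (-1.09 ± 0.14, adjusted p = 0.0138), and 9.34 and 9.04 in A549 3D, against 11.13 and 10.73 in A549 2D (-1.75 ± 0.14, adjusted p = 0.0177). SRXN1 differed by -0.65 ± 0.15 in HCC827 (adjusted p = 0.0355) and by -0.66 ± 0.15 in A549 (adjusted p = 0.0436). All 3 HMOX1 probe sets were below 0 in both lines. The pump ABCC3 had 12.45 and 12.50 in HCC827 3D, against 10.21 and 10.21 in HCC827 2D (2.26 ± 0.13, adjusted p = 0.0106), and 13.64 and 13.70 in A549 3D, against 12.87 and 12.70 in A549 2D (0.88 ± 0.13, adjusted p = 0.0229). Its second probe set gave 1.08 in HCC827 and 1.19 in A549.

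**Figure D3:**
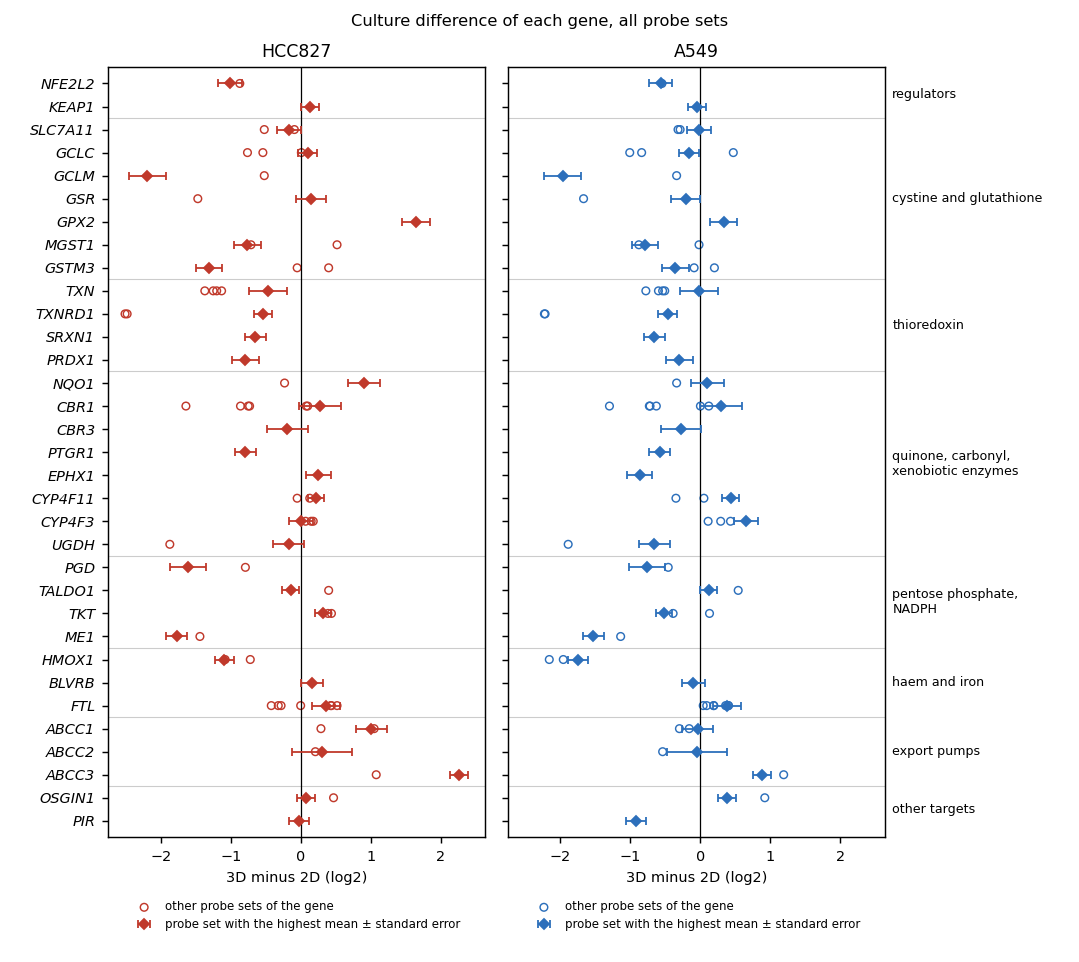
Culture difference (3D minus 2D, log2, x axis) of the 33 genes in HCC827 (left) and A549 (right): diamonds with standard errors are the probe sets used, open circles the other probe sets of the same gene. GCLM, ME1 and HMOX1 lie left of 0 and ABCC3 right of 0 in both panels with every probe set, while TXNRD1, UGDH, GSR and CBR1 have circles far from their diamonds.

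Further genes were called in HCC827. NFE2L2 itself had 10.72 and 10.76 in HCC827 3D, against 11.50 and 12.01 in HCC827 2D (-1.01 ± 0.17, adjusted p = 0.0187), with a second probe set of like size, and in A549 it differed by -0.57 ± 0.17 (adjusted p = 0.0762). PGD was lower in HCC827 3D by -1.61 ± 0.26 (adjusted p = 0.0185) and GSTM3 by -1.31 ± 0.19 (0.0151). PTGR1 (-0.79), PRDX1 (-0.79), MGST1 (-0.76) and TXNRD1 (-0.54) made up the rest, with adjusted p-values of 0.0251 to 0.0429, and another MGST1 probe set gave 0.52.

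Higher in HCC827 3D besides ABCC3 were GPX2, with 9.21 and 9.66 in 3D, against 7.88 and 7.68 in 2D (1.65 ± 0.20, adjusted p = 0.0124), ABCC1 (1.01 ± 0.22, adjusted p = 0.0333) and NQO1 (0.90 ± 0.23, adjusted p = 0.0475). The second NQO1 probe set gave -0.23. In A549 the genes called lower also included PIR (-0.92 ± 0.14), EPHX1 (-0.87 ± 0.18) and TKT (-0.52 ± 0.11), with adjusted p-values of 0.0233 to 0.0434.

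The sign of a culture value differed between probe sets more often than that of a line value, while sizes varied for both. The 3D minus 2D sign differed between probe sets of 1 gene for 9 genes in HCC827 and 6 in A549, out of 24 with several probe sets. TXNRD1 was the widest case for culture: its brightest probe set gave -0.54 in HCC827 and -0.47 in A549. Its other 2 gave -2.51 and -2.48 in HCC827 and -2.23 and -2.22 in A549. UGDH gave -0.17 and -1.87 in HCC827. When 1 array of a line is left out, that line has no residual left, and the error of every gene comes from the other line alone. Shares of all tested genes in such fits are not given here. Leaving out any 1 of the 4 A549 arrays left 0 of the culture calls in either line, whereas leaving out any 1 HCC827 array gave 7 higher and 16 lower in A549 and 8 or 9 higher and 11 or 17 lower in HCC827.

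Among the related lists, 3D culture of HCC827 gave 1 higher and 8 lower of the 21 other thiol and peroxide enzymes, 1 higher and 4 lower of the 15 other pentose phosphate and NADPH enzymes, and 1 higher and 2 lower of the 9 other glutathione transferases. In A549 the same lists gave 2 higher and 3 lower, 2 higher and 1 lower, and 0 higher and 2 lower. The 12 other NRF2 targets gave 2 higher and 1 lower in each line, and the 10 genes of the KEAP1-NRF2 machinery 0 higher and 1 lower in each.

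A test of whether the culture difference itself differed between the lines called 0 of 33 genes and 0% of all genes in limma's fit, with 9 of the 33 and 1696 of all genes at an unadjusted p under 0.05. ABCC3 had the smallest adjusted p of the 33 (1.38 ± 0.18, adjusted p = 0.148), and it was called in a fit without the treatment term. Its second probe set gave like culture differences in the 2 lines, 1.08 in HCC827 and 1.19 in A549. GPX2 differed by 1.33 ± 0.28 between the lines and TKT by 0.83 ± 0.16, neither of them past the threshold. Fits with 1 HCC827 array left out take their error from A549 alone, and their shares of all tested genes are not given here. The size of the count depended on single HCC827 arrays: without the 3D control or the 2D array labelled control it was 8 higher and 9 lower, and without either of the others 13 higher and 2 lower.

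The third comparison asked what gefitinib did in each line. In A549, which lacks the activating EGFR mutation, limma called 0 of 33 genes and 0% of all genes, with 1 of the 33 and 86 of all genes at an unadjusted p under 0.05. That gene was TXNRD1, at 0.39 ± 0.13, and 30 of the 33 estimates were above 0, as were 61.2% of all tested genes, with a median of 0.14 against 0.04 over all genes. The signs were not stable: with cyclic loess 24 of the 33 were above 0, without either A549 2D array 22, and in the additive fit, which averages in HCC827, 16. SRXN1 had 11.26 with gefitinib and 10.76 in control in 3D, and 11.81 with gefitinib and 11.54 in control in 2D (0.39 ± 0.15). HMOX1 had 0.35 ± 0.14 and NFE2L2 0.34 ± 0.17, and 22 genes were above 0 in both A549 pairs. Of all tested genes, 58.8% were above 0 in the A549 3D pair and 60.8% in the A549 2D pair. The share of all genes above 0 in both pairs, and the shares under the alternative settings, are not given here.

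In HCC827 the 3D pair could be fitted without the 2D arrays of that line, with the spread taken from A549 alone, so the errors do not include any spread of HCC827. There 11 of 33 genes were called lower with gefitinib (20.4% of all tested genes) and 0 higher (6.78%), with a median of -0.29 against -0.11 over all genes. With cyclic loess scaling, which moved the median of all genes to 0.04, the split was 5 lower and 3 higher (9.84% and 12.8% of all) and the median of the 33 was -0.06. GCLM, GSTM3, TXN, CBR3 and ABCC2 were called lower in both scalings. On the HCC827 3D gefitinib array, with a median of 7.27, CBR3 had 7.19 and ABCC2 7.49, so both signals can be near background there. TKT (0.57), FTL (0.45) and ABCC1 (0.45) were called higher with cyclic loess and had 0.22, 0.07 and 0.19 without it.

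Of the glutathione genes 6 of 7 were called lower without cyclic loess: GSTM3 (-0.83 ± 0.14), GCLM (-0.81 ± 0.12), SLC7A11 (-0.48 ± 0.14), MGST1 (-0.46 ± 0.15), GPX2 (-0.45 ± 0.13) and GSR (-0.40 ± 0.13). GCLC, the remaining member, had -0.14 ± 0.12, and the other GSTM3 probe sets, both dim, gave -0.12 and 0.22. When probe sets were averaged per gene, the calls of GSR, MGST1 and GSTM3 were lost, and with the most variable probe set those of GSR, CBR1 and UGDH. TXN had 12.27 with gefitinib and 13.17 in control (-0.90 ± 0.16, adjusted p = 0.00226), and its 5 probe sets all lay between -0.90 and -1.05. ABCC2 had 7.49 with gefitinib and 8.39 in control (-0.90 ± 0.12, adjusted p = 0.000470), with -0.36 for its second probe set.

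The other 3 were the carbonyl reductases CBR3 (-0.73 ± 0.13) and CBR1 (-0.52 ± 0.12) and UGDH (-0.55 ± 0.12). NFE2L2 (-0.03 ± 0.12) and KEAP1 (0.03 ± 0.12) were not called, though the second NFE2L2 probe set gave 0.40. NQO1 was not called at -0.39, and its second probe set gave -0.74. Nor was any of PGD, TALDO1, TKT and ME1 called, at -0.36, -0.34, 0.22 and -0.29. The treated 3D array also had the larger 3' to 5' difference of GAPDH, 1.57 with gefitinib and 0.97 in control, and the larger labelling spike mean, 11.41 with gefitinib and 11.06 in control. The part of these in the gefitinib values was not tested.

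**Figure D4:**
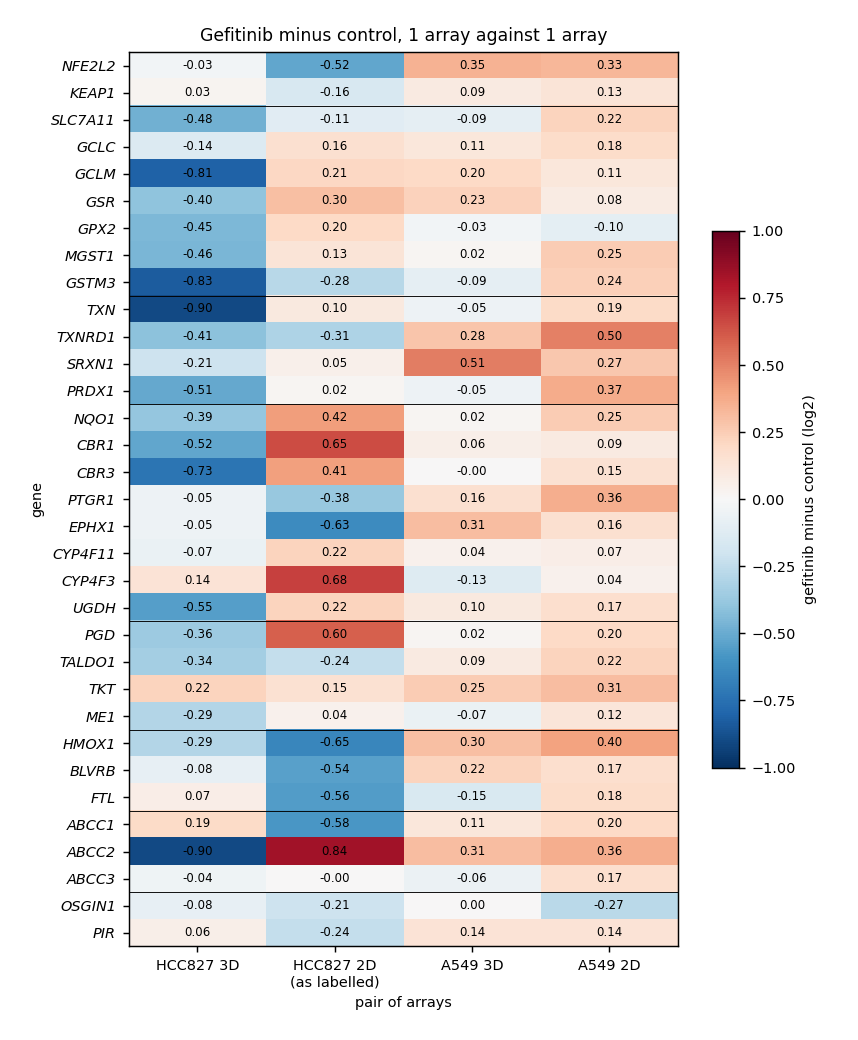
Gefitinib minus control (log2, colour and printed value) for the 33 genes (rows) in 4 pairs of arrays (columns), each 1 array against 1 array, with the HCC827 2D pair as labelled. Most cells of the HCC827 3D column are below 0, down to -0.90 for TXN and ABCC2, and most A549 cells are above 0, up to 0.51.

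Of the related lists in the HCC827 3D pair, 11 of 21 other thiol and peroxide enzymes were called lower and 2 higher, 6 of 15 other pentose phosphate and NADPH enzymes lower and 2 higher, and 3 of 9 other glutathione transferases lower and 1 higher. The 12 other NRF2 targets gave 2 lower and 3 higher, and the 10 genes of the KEAP1-NRF2 machinery 2 lower and 0 higher. Set against gefitinib in A549, the HCC827 3D difference was lower for 14 of the 33 genes (17.0% of all tested genes) and higher for 0 (3.56%), and with cyclic loess lower for 5 (6.20%) and higher for 1 (6.16%). TXNRD1, HMOX1, SRXN1 and PRDX1 were among these 14 without being called in HCC827 3D alone.

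The HCC827 2D pair is given as labelled. Its median was 0.04, against -0.05 over all genes. In it 9 of the 11 genes called lower in 3D were above 0, with SLC7A11 (-0.11) and GSTM3 (-0.28) below. The matching share of all genes called lower in 3D is not given here, so the 9 cannot be read as particular to these genes. By a fold of 1.5 or more, ABCC2 (0.84), CYP4F3 (0.68), CBR1 (0.65) and PGD (0.60) were higher in the array labelled gefitinib (5.65% of all genes) and HMOX1 (-0.65) and EPHX1 (-0.63) lower (5.83%). By the same fold 5 of 33 were lower in the HCC827 3D pair (9.68%) and 0 higher (2.91%). There is no replicate error for single pairs, and the opposite ERK genes in the 2D pair mean that its direction is not settled. With its labels exchanged every sign turns, so that 9 of the 11 genes would lie below 0 in it, and ABCC2, CYP4F3, CBR1 and PGD would be lower.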

How the data were processed

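RNA of 8 cultures was hybridised to 3' in vitro transcription arrays. The authors deposited log2 values for 49495 probe sets and, per the submitters' processing notes, used RMA and R 3.2.1, with the genome build not given in the sources used here. From these, the 45278 probe sets annotated to 1 symbol were used (1333 with several were left out; 102 are controls), and each gene took the probe set with the highest mean over the arrays. Genes above the array median on at least 2 arrays were tested. Gene symbols were matched to RefSeq (45208 of 45278 probe sets).

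A limma 3.58.1 fit in R 4.3.3 with 6 coefficients (mean, line, culture, treatment, line by culture, line by treatment) and a variance trend left 2 degrees of freedom for the residual and took 2.36 from the prior. Gefitinib in HCC827 3D, and its difference from A549, came from 5 coefficients on 6 arrays (1 residual, 9.12 prior). Tests were two-sided with Benjamini-Hochberg adjustment. Fits were tested on simulated data. All 33 genes are named; of each related list, up to 4 with the largest called line difference, or 2 where none passes. The members and the lists were chosen with earlier results of these data known. The alternatives were other probe-set choices, cyclic loess, no filter, robust or untrended moderation, other model terms and arrays left out. The number of arrays limits precision, and the p-values do not measure spread between replicates, since there are none. They rest on how far the gefitinib difference changed between cultures and on the prior taken from all tested genes. In both fits the prior held more degrees of freedom than the residual.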

Additional observations from a re-analysis of the deposited data

Results flagged for a closer look

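In 3D, the gefitinib difference was lower in HCC827 than in A549 (averaged over its cultures) for 14 of the 33 genes by limma's adjusted p, against 17.0% of all tested genes, and higher for 0, against 3.56%. The differences between the lines were -1.23 for ABCC2 (gefitinib minus control -0.90 in HCC827 and 0.33 in A549), -0.97 for GCLM, -0.97 for TXN, -0.91 for GSTM3, -0.81 for CBR3, -0.80 for TXNRD1, -0.68 for UGDH and -0.67 for PRDX1. For HMOX1 it was -0.64, for SRXN1 -0.60, for CBR1 -0.59, for MGST1 -0.59, for GSR -0.55 and for SLC7A11 -0.54. Adjusted p-values ran from 0.000496 for ABCC2 to 0.0481 for PRDX1. The HCC827 side is 1 pair of arrays, and the error comes from A549. CBR3 and ABCC2 lay near the array median on the HCC827 3D gefitinib array.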

How the results depend on the processing

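Replicates could not be paired, because each condition has 1 array and the groups share only the replicate number 1. Arrays were matched by line, culture and treatment through the terms of the main fits. The fit rests on few residual degrees of freedom, and no array can be left out of the 5-coefficient fit. The line comparison gave 27 to 30 genes called lower under all alternatives that kept every A549 array, and 20 or 21 without any 1 A549 array; the genes called higher ranged from 0 to 2, with 0 in the additive fit, without both HCC827 2D arrays and within the 3D arrays. Leaving out single arrays gave 20 to 30 lower for the line, 0 to 7 higher and 0 to 16 lower for culture in A549, 0 to 9 higher and 0 to 17 lower for culture in HCC827, and 0 to 13 higher and 0 to 9 lower for the interaction. For culture in A549, the calls were 2 higher with the mean of probe sets, and 3 higher and 14 lower with the most variable probe set. They were 3 higher and 11 lower without the treatment term, and 7 higher and 16 lower without both HCC827 2D arrays. The additive fit, with 1 culture term shared by both lines, also gave 3 higher and 11 lower. The interaction had 1 call without the treatment term. Gefitinib in HCC827 3D gave 3 higher and 5 lower with cyclic loess. Its difference between lines gave 8 lower with the mean of probe sets, and 1 higher and 5 lower with cyclic loess. The cause of the changes with probe set, scaling and model terms was not tested. Signs turned for NFE2L2 (line, -0.22 without both HCC827 2D arrays, where it was called lower), CBR3 (line, -0.25 to 0.32 with single arrays left out), CBR1 (culture, most variable probe set, -1.64 in HCC827 and -1.30 in A549) and GSR (culture in HCC827, most variable probe set, -1.47). With single arrays left out, culture in HCC827 ranged from -0.30 to 0.86 for CBR1, -0.76 to 0.38 for CBR3 and -0.56 to 1.18 for ABCC2, and the interaction from -0.61 to 0.56 for CBR1, -0.48 to 0.66 for CBR3 and -0.51 to 1.22 for ABCC2.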
